A study of Mus musculus with 11 samples.

Results

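The 10 immediate early genes described here are Fos, Fosb, Junb, Egr1, Egr2, Npas4, Nr4a1, Arc, Dusp1 and Btg2, found by symbol among 39017 Ensembl gene IDs in a table of raw read counts. Ribosome-bound RNA was measured in the hippocampus of 11 female mice on a C57BL/6J background, 1 library per mouse, at 12 to 14 months of age. There were 4 ERβ cKO (sham) mice, 4 WT (GDX) mice and 3 WT (sham) mice. The comparisons ask what loss of estrogen receptor β from astrocytes, or loss of the ovaries, does to RNA in hippocampal astrocytes at midlife. Mice of all 3 groups carried Gfap-Cre, a Cre recombinase under a mouse Gfap promoter that is active mainly in astrocytes, and RiboTag, an allele that puts an HA tag on the ribosomal protein RPL22 wherever Cre has acted. The ERβ cKO mice were in addition homozygous for a floxed exon 3 of the ERβ gene and had sham surgery. The WT (GDX) mice had intact ERβ genes and had their ovaries removed in young adulthood. The WT (sham) mice had intact ERβ genes and sham surgery. Mice were killed with an overdose of isoflurane and perfused with cold saline and then dilute paraformaldehyde before the hippocampus was frozen, and tagged ribosomes were pulled down with an antibody to HA. The study also ran water maze and Y maze tests at midlife. Whether the mice sequenced here were tested, and how long before perfusion they were last tested or handled, is not given in the sources used here.

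Immediate early genes are transcribed within minutes of a stimulus, without new protein synthesis, because the factors that switch them on are already present in the cell. In neurons, calcium entry and the MAP kinase pathway act through the factors CREB, SRF and MEF2, and the encoded proteins include transcription factors that start a later wave of genes, a synaptic effector and feedback inhibitors. In the hippocampus Fos, Arc and Egr1 are widely used to mark neurons that were recently active, and astrocytes also switch on several of these genes after growth factors, injury or calcium signals. The groups compared differ in genotype and surgery, not in a stimulus, and the values are levels at the time of perfusion.

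The promoters of 4 members are shown because Fos, Fosb and Nr4a1 had the highest mouse-to-mouse correlations among the members, none of which passed correction, and Dusp1 held the most outlying value. Each line gives the 250 bases before the transcription start in the direction of the gene, from RefSeq on build GRCm38.p6. Fos lies on the forward strand, with the stretch at chr12:85473640-85473889. Fosb is on the reverse strand at chr7:19310046-19310295, Nr4a1 on the forward strand at chr15:101266596-101266845 and Dusp1 on the reverse strand at chr17:26508473-26508722. Capitals mark matches to TGACG, the core of the cyclic AMP response element that CREB binds, to its full palindrome TGACGTCA, and to GCGNGGGCG, the site of the EGR family, each read on both strands.
Fos: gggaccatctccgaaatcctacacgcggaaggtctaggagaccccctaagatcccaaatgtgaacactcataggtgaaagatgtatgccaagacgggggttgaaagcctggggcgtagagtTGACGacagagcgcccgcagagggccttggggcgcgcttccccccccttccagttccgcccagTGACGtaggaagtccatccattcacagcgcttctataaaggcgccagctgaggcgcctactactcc
Fosb: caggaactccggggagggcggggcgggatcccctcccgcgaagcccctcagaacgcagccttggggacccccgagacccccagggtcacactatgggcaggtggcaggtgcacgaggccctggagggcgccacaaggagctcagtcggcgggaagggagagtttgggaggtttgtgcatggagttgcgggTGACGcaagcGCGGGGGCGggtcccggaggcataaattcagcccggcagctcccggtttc
Nr4a1: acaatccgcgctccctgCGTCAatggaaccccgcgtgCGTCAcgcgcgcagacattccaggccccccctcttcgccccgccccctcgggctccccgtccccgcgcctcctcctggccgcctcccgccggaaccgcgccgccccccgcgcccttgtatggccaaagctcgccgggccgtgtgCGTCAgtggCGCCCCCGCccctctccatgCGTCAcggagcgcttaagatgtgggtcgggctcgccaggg
Dusp1: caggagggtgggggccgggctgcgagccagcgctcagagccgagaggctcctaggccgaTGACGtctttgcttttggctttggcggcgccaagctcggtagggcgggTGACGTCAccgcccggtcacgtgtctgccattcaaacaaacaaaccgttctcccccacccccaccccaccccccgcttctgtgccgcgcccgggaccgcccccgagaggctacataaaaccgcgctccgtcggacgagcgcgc

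TGACG was present in a window of all 8 members that had windows in the RefSeq table, which run from 250 bases before to 50 after the start, while 20.8% of 32851 windows in that table held it. In Fos its first base was at positions -129 and -66, counted back from the start, and Nr4a1 held 4 matches. The full palindrome TGACGTCA, which contains TGACG on both strands, was found in Dusp1 and Btg2, against 1.79% of windows. GCGNGGGCG was found in Fosb, Nr4a1 and Btg2, against 5.55% of windows. The CArG box that SRF binds was found in Egr2, against 1.63% of windows. Neither TGANTCA, the AP-1 site (7.81% of windows), nor the palindromic estrogen response element with a spacer of 3 bases (0.07% of windows) matched a window of a member. Egr2 had 5 windows and so more places for a match than the other members, and the shares were not adjusted for base composition, although member windows were 56 to 72.3% G and C. Egr1 and Arc had no window. A match describes letters only, and no match says nothing of binding elsewhere.

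The libraries held between 16956233 and 18190968 counts, so depth differed little between mice. Levels are given as CPM, the counts of a gene scaled to a common library total with factors from the trimmed mean of M values (TMM) over the 11 libraries, and as CPM per kilobase of exon where genes are compared with each other. The library of ERβ cKO mouse F5 stood apart from those of the other ERβ cKO mice, with a chi-square per degree of freedom of 30.6 to 39.8 against them, compared with 13.9 to 19.4 among the other 3. To a lesser degree WT (sham) mouse F4 also stood apart, at 25.7 and 17.2 against mice F1 and F3, which had 12.5 against each other. Counts of Esr2, the targeted gene, were 0 to 4 in ERβ cKO mice, 0 to 7 in GDX mice and 0 to 4 in WT (sham) mice, too few to check the deletion. The astrocyte label was checked against markers. The 15 astrocyte markers summed to 24000 to 28900 CPM in ERβ cKO mice, 34200 to 40800 CPM in GDX mice and 27500 to 32100 CPM in WT (sham) mice, but 13 neuron markers were also present, at 10900 to 12600, 10900 to 11600 and 10700 to 12400 CPM in the same order of groups. Per kilobase, the median over the 11 mice ran from 30.6 CPM for Aldh1l1 to 2170 CPM for Glul among the astrocyte markers (median of the list 111 CPM) and from 2.83 CPM for Gad2 to 1110 CPM for Nrgn among the neuron markers (median 150 CPM), with Camk2a, a kinase of excitatory neurons, at 454 CPM. Cldn5 of endothelium had a median of 5.84 CPM and Cx3cr1 of microglia 0.706 CPM on the same scale.

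Some marker lists moved with the groups. The 9 choroid plexus markers summed to 23.5 to 30.4 CPM in ERβ cKO mice, 22.5 to 27.6 CPM in GDX mice and 56.7 to 200 CPM in WT (sham) mice, and the 7 ependyma markers to 13.4 to 31.3, 10.6 to 29.3 and 39.3 to 42.3 CPM in the same order. The WT (sham) libraries thus lay above both other groups for these 2 lists, in each comparison with WT (sham). Of the choroid plexus markers, 3 were called lower in ERβ cKO and 5 in GDX than in WT (sham) mice, and of the ependyma markers 0 and 1. Against WT (sham), 15 of 15 astrocyte markers were negative in ERβ cKO mice with 0 called, and 14 of 15 were positive in GDX mice with 3 called higher. Sums over the 6 markers of meninges and fibroblasts were 97.8 to 125 CPM in ERβ cKO, 115 to 130 CPM in GDX and 132 to 164 CPM in WT (sham) mice. Those of endothelium were 112 to 160, 41.8 to 92.8 and 38.2 to 119 CPM, and those of pericytes and smooth muscle 108 to 134, 63.4 to 105 and 67.7 to 120 CPM. Oligodendrocyte precursor markers summed to 55.8 to 132, 47.3 to 81.7 and 44 to 53.7 CPM and blood markers to 0.279 to 7.58, 2.83 to 3.51 and 3.76 to 25.7 CPM. WT (sham) mouse F4 alone gave the upper end of the WT (sham) range for several lists. Against mouse F4, mice F1 and F3 had 38.2 and 40.1 CPM for endothelium, 75.1 and 67.7 CPM for pericytes and smooth muscle, 56.7 and 115 CPM for choroid plexus, and 5.52 and 3.76 CPM for blood. Sums of dentate granule neuron, oligodendrocyte and microglia markers overlapped between all groups. Neurons and endothelium also express immediate early genes. Which cells the members' counts came from, and the part of the marker differences in the members' values, was not tested.

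Every member was detected in every library, with counts per library of 24 or more. Per kilobase of exon, Egr1 was highest, with a lowest, median and highest level over the 11 mice of 22.1, 31.7 and 40.1 CPM. Arc followed at 20.7, 27.4 and 35.2 CPM and Junb at 16.9, 20.6 and 25.6 CPM. Egr1 was above Arc in 8 of 11 mice, so these neighbors did not separate beyond their spread, whereas Arc was above Junb in 11 of 11 mice although their ranges overlapped. Nr4a1 came next at 10.9, 13.9 and 16.4 CPM, a range that overlapped neither with Junb above nor with Dusp1 below. Dusp1 had 3.93, 4.59 and 10.3 CPM and Btg2 had 3.34, 4.22 and 5.31 CPM, with Dusp1 the higher in 9 of 11 mice. These 6 genes had medians above 4 CPM per kilobase, whereas the remaining 4 lay below 3. Fos had 1.01, 2.80 and 3.25 CPM and Fosb 1.22, 1.93 and 2.65 CPM, with Fos above Fosb in 9 of 11 mice. Npas4 had 0.554, 1.03 and 2.27 CPM and Egr2 0.395, 0.764 and 1.18 CPM, with Npas4 above Egr2 in 8 of 11 mice. Ranges of Btg2 and Fos did not overlap, so gaps between ranges lay below Junb, Nr4a1 and Btg2.

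No member passed the test between groups over all genes. With edgeR's quasi-likelihood test and a Benjamini-Hochberg adjusted p under 0.1, 0 of 10 members were called in ERβ cKO against WT (sham) mice, where 0.0301% of 19938 genes were called (0.015% higher and 0.015% lower). Likewise 0 of 10 were called in GDX against WT (sham) mice, where 0.437% of 19695 genes were called (0.325% higher and 0.112% lower), and 0 of 10 in ERβ cKO against GDX mice, where 4.15% of 19759 genes were called (1.93% higher and 2.22% lower). At an unadjusted p under 0.05 the member counts were 0, 0 and 1 in these 3 comparisons, beside 5.33%, 7.98% and 17.2% of all genes. DESeq2 and both the exact and the likelihood ratio test of edgeR also called 0 members in each. The CPM of the groups overlapped for every member in every comparison. They did not overlap for 6.34%, 8.84% and 10% of all genes, so 0 of 10 members is near the share over all genes. The median log2 fold change over the 10 members was -0.17, -0.13 and -0.12, beside 0, -0.01 and 0 over all genes tested, and 7 of 10 members were negative each time. The comparisons with WT (sham) share the same 3 control mice, so their values are not independent of each other. In a pulldown from a whole tissue, fewer cells with a transcript and less transcript per cell cannot be told apart.

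**Figure D1:**
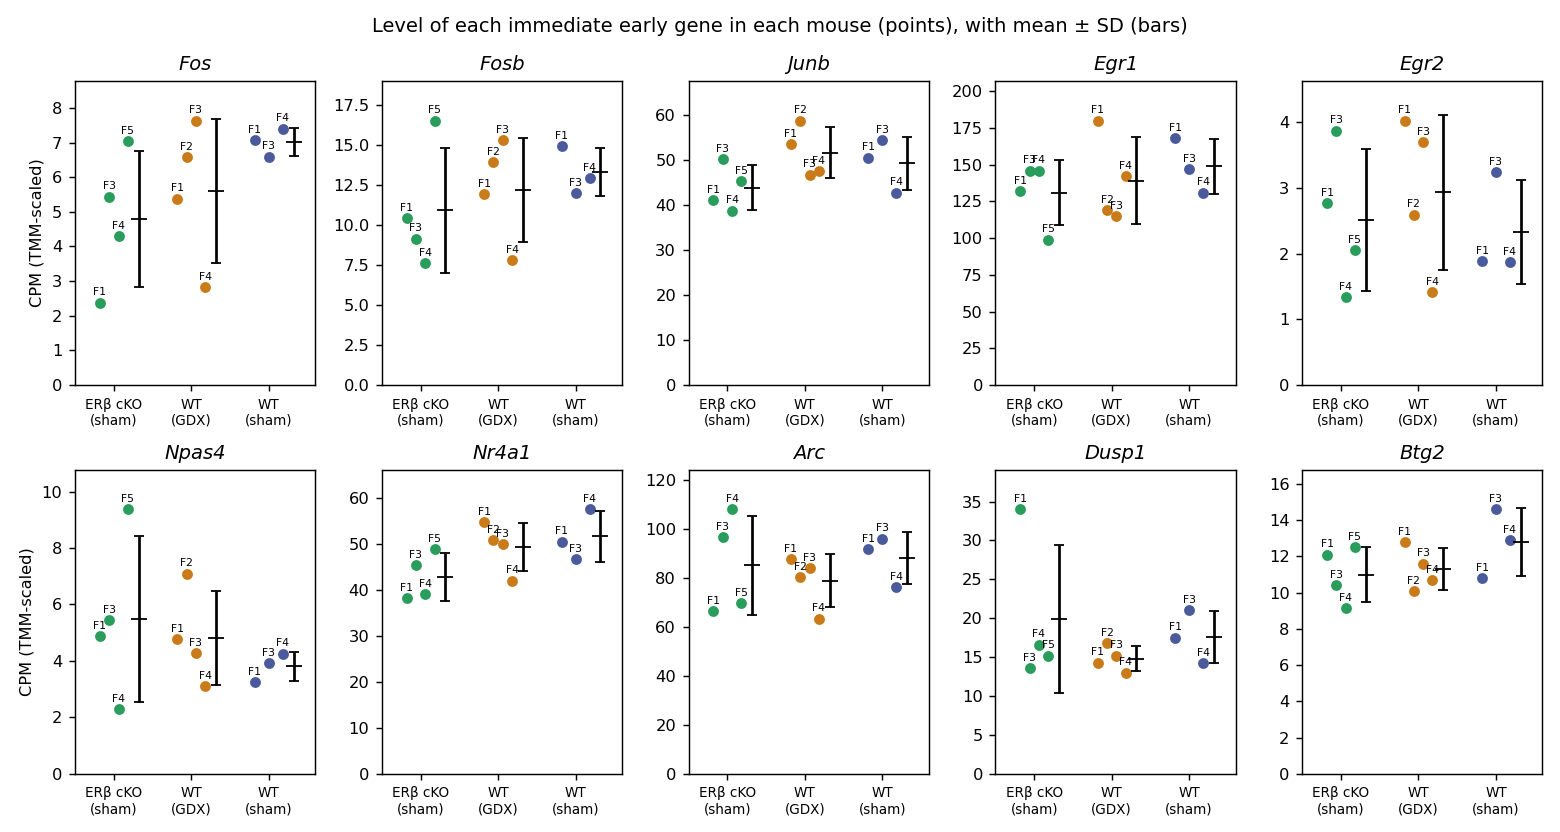
Level of each immediate early gene in CPM (vertical axes, each from 0) in every mouse, with the group mean and SD beside the points, for ERβ cKO (sham), WT (GDX) and WT (sham) mice. Points of the groups overlap in all 10 panels, the 3 WT (sham) mice lie close together for Fos (6.59 to 7.40 CPM), and ERβ cKO mouse F1 stands alone for Dusp1 at 34.0 CPM.

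The AP-1 family was examined first. FOS and FOSB pair with JUN proteins, JUNB among them, to form the AP-1 transcription factor. In what follows values are listed by mouse number, F1, F3, F4 and F5 for ERβ cKO, F1 to F4 for GDX, and F1, F3 and F4 for WT (sham). Gene positions are those of GENCODE M21 on mm10, the build the reads were aligned to, and the RefSeq starts of Fosb, Nr4a1 and Dusp1 lie inside the longer GENCODE spans. Fos (chr12:85473890-85477273) had 2.38, 5.44, 4.30 and 7.04 CPM in the ERβ cKO mice, 5.38, 6.57, 7.63 and 2.83 CPM in the GDX mice, and 7.06, 6.59 and 7.40 CPM in the WT (sham) mice. The WT (sham) values were all high and close together, while ERβ cKO and GDX mice each ran from low values up to the WT (sham) range. Mean Fos was 4.79 ± 1.96 CPM in ERβ cKO mice (SD, n = 4), 5.60 ± 2.07 CPM in GDX mice (n = 4) and 7.02 ± 0.406 CPM in WT (sham) mice (n = 3). The log2 fold change of ERβ cKO over WT (sham) was -0.55 (SE 0.29, 95% interval -1.16 to 0.06, edgeR adjusted p = 0.946), and the exact two-sided permutation p was 0.114, where 0.0571 is the smallest that 4 against 3 mice allow. For GDX over WT (sham) it was -0.34 (SE 0.25, interval -0.86 to 0.17, edgeR adjusted p = 0.793). Without ERβ cKO mouse F1 the first value was -0.31, and without mouse F5 it was -0.79 (edgeR adjusted p = 0.402). Without GDX mouse F4 the second was -0.12.

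Fosb (chr7:19302696-19310051) followed a like pattern at a higher CPM. It had 10.4, 9.14, 7.60 and 16.5 CPM in the ERβ cKO mice, 11.9, 13.9, 15.3 and 7.81 CPM in the GDX mice, and 14.9, 12.0 and 12.9 CPM in the WT (sham) mice. The lowest values were again those of 1 ERβ cKO and 1 GDX mouse, both numbered F4, and the highest was that of ERβ cKO mouse F5. The log2 fold change was -0.28 (SE 0.23) in ERβ cKO and -0.14 (SE 0.18) in GDX over WT (sham), with edgeR adjusted p of 0.966 and 0.914. Without ERβ cKO mouse F5, whose library stood apart from those of its group, the ERβ cKO value was -0.55 (edgeR adjusted p = 0.409).

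Junb (chr8:84974484-84978718) gave the lowest unadjusted p of the members in any comparison. It had 41.2, 50.3, 38.8 and 45.3 CPM in the ERβ cKO mice, 53.6, 58.8, 46.8 and 47.5 CPM in the GDX mice, and 50.6, 54.4 and 42.8 CPM in the WT (sham) mice. ERβ cKO mouse F3 was the only one of its group above the lowest GDX mouse. ERβ cKO over GDX was -0.23 (SE 0.11, interval -0.46 to 0, edgeR unadjusted p = 0.049, adjusted p = 0.288, exact permutation p = 0.114), in a comparison where 17.2% of genes had an unadjusted p under 0.05. Against WT (sham), Junb was -0.16 in ERβ cKO mice (interval -0.44 to 0.12) and 0.05 in GDX mice (interval -0.18 to 0.28). In GENCODE M21 its exons share 173 bases with Prdx2 on the opposite strand, which held 31954 counts over the 11 libraries against 9315 for Junb, and since the strand setting of the counting is not given in the sources used here, Junb is uncertain to that extent.

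The zinc finger factors EGR1 and EGR2 bind GC-rich sites in neuronal and myelin genes. Egr1 (chr18:34859823-34864984) was the member with the most counts, 1743 to 3179 per library. It had 132, 146, 146 and 99.0 CPM in the ERβ cKO mice, 180, 119, 115 and 142 CPM in the GDX mice, and 168, 147 and 131 CPM in the WT (sham) mice. The lowest value belonged to ERβ cKO mouse F5 and the highest to GDX mouse F1, and values on both sides of the mean over the 11 mice, 139 CPM, occurred in each group. The log2 fold change was -0.18 in ERβ cKO (interval -0.48 to 0.11) and -0.11 in GDX mice (interval -0.44 to 0.22) over WT (sham). Egr2 (chr10:67535475-67542188) was the lowest member, with 24 to 71 counts per library. It had 2.77, 3.87, 1.34 and 2.05 CPM in the ERβ cKO mice, 4.02, 2.59, 3.70 and 1.41 CPM in the GDX mice, and 1.88, 3.24 and 1.87 CPM in the WT (sham) mice. High and low values occurred in each group. Its intervals over WT (sham), -0.71 to 0.93 in ERβ cKO and -0.42 to 1.05 in GDX mice, leave room for changes of either sign.

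NPAS4 is a factor that neurons induce after calcium entry and that shapes inhibitory synapses. Npas4 (chr19:4984355-4990316) had 4.87, 5.44, 2.29 and 9.37 CPM in the ERβ cKO mice, 4.76, 7.09, 4.28 and 3.11 CPM in the GDX mice, and 3.25, 3.93 and 4.26 CPM in the WT (sham) mice. ERβ cKO mice held both the lowest and the highest of the 11 values, whereas the WT (sham) mice lay within 1.31-fold of each other. The log2 fold change was 0.53 in ERβ cKO (SE 0.36, interval -0.23 to 1.29, edgeR adjusted p = 0.966) and 0.32 in GDX mice (SE 0.27, interval -0.25 to 0.88, adjusted p = 0.845) over WT (sham). Without ERβ cKO mouse F5 the ERβ cKO value was 0.15.

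NR4A1 is an orphan nuclear receptor induced by cyclic AMP and calcium. Nr4a1 (chr15:101254269-101274795) had 38.2, 45.5, 39.1 and 48.9 CPM in the ERβ cKO mice, 54.8, 50.9, 50 and 42.1 CPM in the GDX mice, and 50.6, 46.7 and 57.6 CPM in the WT (sham) mice. Of the 4 ERβ cKO values 3 were below the lowest WT (sham) value, and mouse F5 was not. Mean Nr4a1 was 42.9 ± 5.16 CPM in ERβ cKO mice (SD, n = 4), 49.4 ± 5.29 CPM in GDX mice (n = 4) and 51.7 ± 5.54 CPM in WT (sham) mice (n = 3). ERβ cKO over WT (sham) was -0.26 (SE 0.13, interval -0.54 to 0.01, edgeR unadjusted p = 0.0618, adjusted p = 0.933, exact permutation p = 0.114), and over GDX it was -0.20 (SE 0.11, interval -0.43 to 0.04, adjusted p = 0.384). GDX over WT (sham) was -0.08 (interval -0.30 to 0.14).

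ARC is a cytoskeletal protein that moves AMPA receptors off the synapse. Arc (chr15:74669083-74672570) had 66.5, 96.6, 108 and 69.6 CPM in the ERβ cKO mice, 87.8, 80.4, 83.9 and 63.4 CPM in the GDX mice, and 91.8, 96.1 and 76.2 CPM in the WT (sham) mice. ERβ cKO mice F3 and F4 had the highest values of the 11 and mice F1 and F5 were among the lowest 3. The log2 fold change was -0.05 in ERβ cKO (interval -0.39 to 0.30) and -0.18 in GDX mice (interval -0.40 to 0.04) over WT (sham).

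DUSP1 removes phosphates from MAP kinases and so ends the signal that induces these genes, and its gene is also induced by glucocorticoids. Dusp1 (chr17:26505590-26562128) had 34.0, 13.6, 16.6 and 15.2 CPM in the ERβ cKO mice, 14.3, 16.8, 15.2 and 13.0 CPM in the GDX mice, and 17.5, 21 and 14.2 CPM in the WT (sham) mice. ERβ cKO mouse F1 stood alone, and the other 10 mice lay between 13 and 21 CPM. ERβ cKO over WT (sham) was 0.18 (SE 0.31, interval -0.52 to 0.88) with this mouse and -0.20 without it. ERβ cKO over GDX was 0.43 (SE 0.26, edgeR adjusted p = 0.435) with it and 0.05 without it, so that mouse decides the sign of the first and the size of the second. GDX over WT (sham) was -0.27 (SE 0.15, adjusted p = 0.72). Exons of Dusp1 share 11 bases with Ergic1 on the opposite strand.

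BTG2 is a cofactor that slows the cell cycle and promotes shortening of mRNA tails. Btg2 (chr1:134075170-134079120) had 12.1, 10.4, 9.16 and 12.5 CPM in the ERβ cKO mice, 12.8, 10.1, 11.6 and 10.7 CPM in the GDX mice, and 10.8, 14.6 and 12.9 CPM in the WT (sham) mice. The groups lay over one another, with a log2 fold change of -0.20 in ERβ cKO (interval -0.60 to 0.19) and -0.19 in GDX mice (interval -0.52 to 0.14) over WT (sham).

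**Figure D2:**
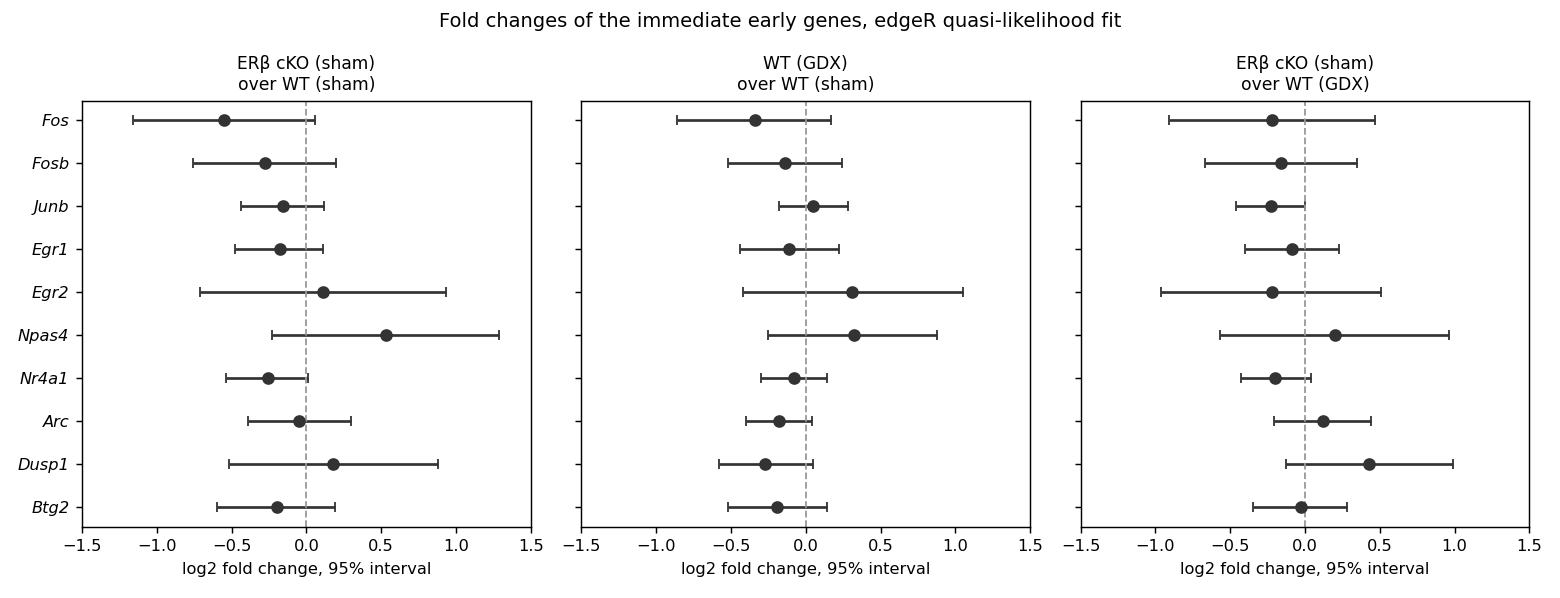
Log2 fold change of each immediate early gene (points) with its 95% interval (lines) from edgeR's quasi-likelihood fit, for ERβ cKO over WT (sham), GDX over WT (sham) and ERβ cKO over GDX mice, with 0 dashed. The 3 panels hold 7 negative and 3 positive points each, and the narrow intervals of Junb, Nr4a1, Egr1, Arc and Btg2 sit beside wide ones for Egr2 and Npas4, such as -0.23 to 1.29 for Npas4 in the first panel.

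The width of these intervals sets what could have been seen. For Junb, Egr1, Nr4a1, Arc and Btg2, a log2 change beyond -0.60 or beyond 0.30 lay outside the 95% interval in both comparisons with WT (sham). For Fos, Egr2 and Npas4 the intervals of ERβ cKO over WT (sham) reached to -1.16, 0.93 and 1.29. Single-gene exact permutation p-values over all members were 0.114 to 0.971 for ERβ cKO against WT (sham), 0.229 to 0.743 for GDX against WT (sham) and 0.114 or more for ERβ cKO against GDX mice, where 0.0286 is the smallest possible. Each of these p-values compares the difference of group means with that under every reassignment of the mice to the groups.

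Spread between mice was also described for each gene. In a fit over the 11 libraries, the biological coefficient of variation within groups, the part of the spread beyond counting noise, was largest for Egr2 at 33.4%, Npas4 at 31.4%, Fos at 28.1% and Dusp1 at 24.1%. It was smallest for Nr4a1 at 11.5% and Junb at 11.7%, and the median over 18882 genes was 16.4%. This coefficient is larger on average for genes of low abundance, so each gene was set against the trend for genes of its abundance. Dusp1 exceeded its trend the most, at 24.1% against 15.2%, followed by Npas4 at 31.4% against 23.5% and Fos at 28.1% against 22.1%. Above the trend were 7 of the 10 members, as were 37.7% of all genes, and Junb, Nr4a1 and Btg2 were below it. Within groups the spread of Fos was uneven. Its coefficient of variation in CPM was 40.9% in ERβ cKO mice, 36.9% in GDX mice and 5.79% in WT (sham) mice, and that of Npas4 was 53.3%, 34.7% and 13.4% in the same order. These coefficients include counting noise, at WT (sham) counts of 114 to 128 for Fos and 59 to 73 for Npas4. Fos and Npas4 were picked from the 10 members. The WT (sham) mice also had the lowest coefficient for Fosb, Egr1, Egr2 and Arc, but not for Junb, Dusp1 and Btg2. For Nr4a1 it was 10.7% in both GDX and WT (sham) mice. With 3 or 4 mice to a group, the difference in spread was not tested.

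**Figure D3:**
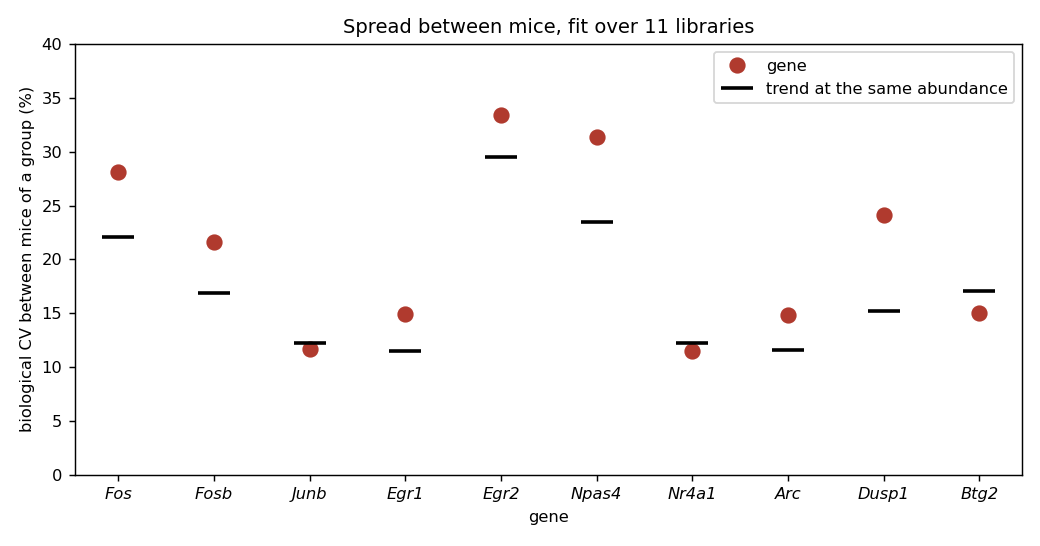
Biological coefficient of variation between mice of a group, in percent, for each immediate early gene (points), with the trend for genes of the same abundance (bars), from a fit over 11 libraries. Dusp1, Npas4, Fos and Fosb are among the 7 genes above their bars, and Junb, Nr4a1 and Btg2 lie below theirs.

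The members' levels were then read mouse by mouse. ERβ cKO mouse F4 had the lowest level of 5 members and was among the lowest 3 mice for 7, and GDX mouse F4 had the lowest level of 2 and was among the lowest 3 for 7. Averaged over the 10 members, the centered log2 level was -0.28 in ERβ cKO mouse F4 and -0.34 in GDX mouse F4, against -0.08 to 0.16 in the other 9 mice. These mice were chosen after their values were seen. At the other end, GDX mouse F1 was among the highest 3 mice for 5 members, as was WT (sham) mouse F3. ERβ cKO mouse F5 had the highest Fosb and Npas4 and also the lowest Egr1, and ERβ cKO mouse F1 had the highest Dusp1 and the lowest Fos. The order of the mice thus differed between members.

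**Figure D4:**
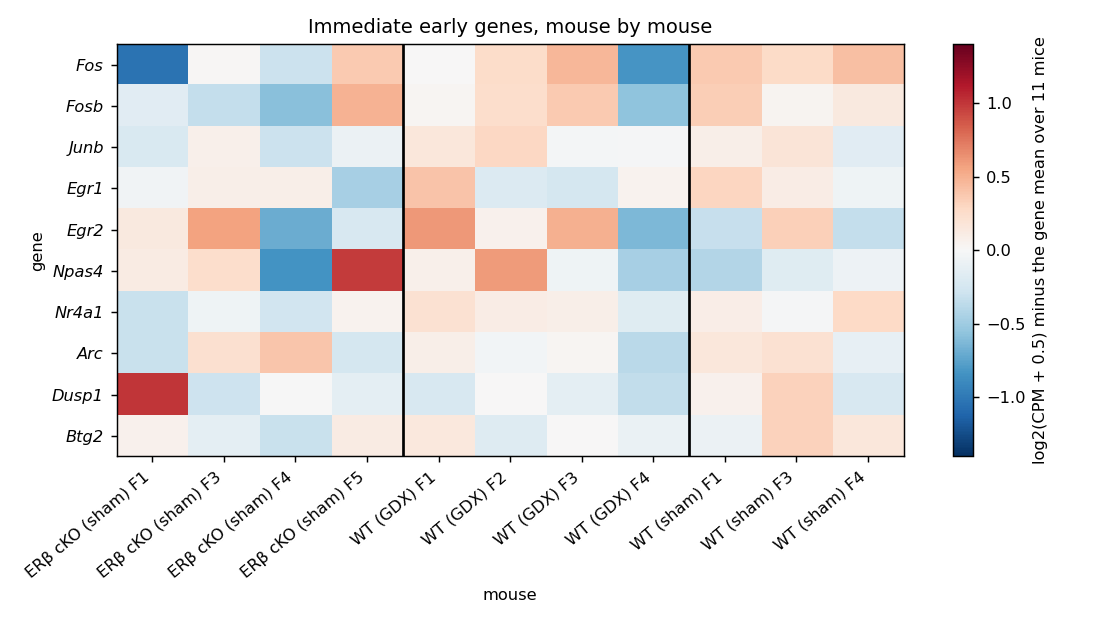
Log2(CPM + 0.5) of each immediate early gene minus its mean over the 11 mice, by mouse, with red for higher and blue for lower, and black lines between ERβ cKO (sham), WT (GDX) and WT (sham) mice. The columns of the ERβ cKO and GDX mice numbered F4 are mostly blue (means of -0.28 and -0.34), and the strongest red cells are Dusp1 in ERβ cKO mouse F1 and Npas4 in ERβ cKO mouse F5.

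Correlation between members over the 11 mice was computed for 45 pairs, of which 32 were positive, 12 negative and 1 at 0 after rounding, with a median Pearson r of 0.22 and a range of -0.61 to 0.79. Of the 45 pairs, 4 had an unadjusted permutation p under 0.05 and 0 had an adjusted p under 0.1. The highest r was that of Fos and Nr4a1, at 0.79 (permutation p = 0.00388, adjusted p = 0.175), with a Spearman rho of 0.66 (permutation p = 0.0313, adjusted p = 0.705). Without the 2 mice farthest from the median of Fos it was 0.66, and after subtracting group means it was 0.77. Fos and Fosb followed with an r of 0.74 (permutation p = 0.01, adjusted p = 0.226) and a rho of 0.81 (permutation p = 0.00382, adjusted p = 0.172), 0.89 without the 2 farthest mice and 0.69 after subtracting group means. Fosb and Nr4a1 had an r of 0.69 (permutation p = 0.0207, adjusted p = 0.311) and a rho of 0.59 (permutation p = 0.0614, adjusted p = 0.78), 0.46 without the 2 farthest mice and 0.64 after subtracting group means. The remaining pair, Egr1 and Npas4, was negative at -0.61 (permutation p = 0.0458, adjusted p = 0.506), with a rho of -0.45 (permutation p = 0.175, adjusted p = 0.786), -0.55 without the 2 farthest mice and -0.57 after subtracting group means. Groups of 3 or 4 mice are too few for an r of their own. These pairs were picked as the highest and lowest of 45, and none passed the correction. Against the mean of the other 9 members, r was highest for Fosb at 0.68 and Nr4a1 at 0.61 and near or below 0 for Arc at 0.07, Dusp1 at -0.17 and Egr1 at -0.21.

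**Figure D5:**
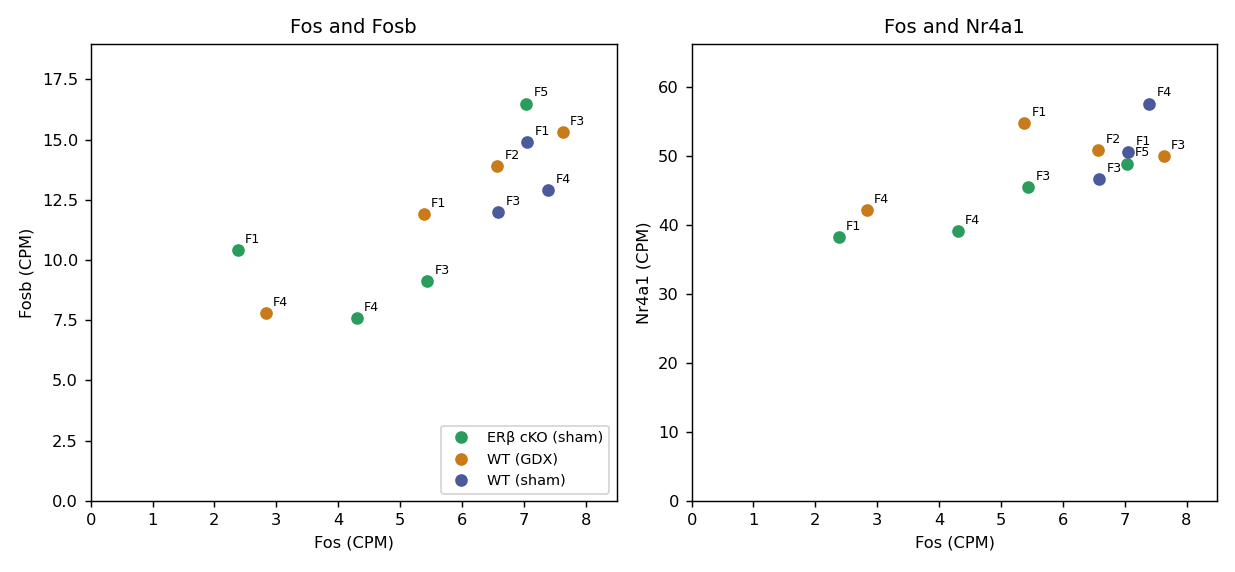
Fosb (left) and Nr4a1 (right) against Fos, each in CPM, with 1 point per mouse colored by group. The mice with the lowest Fos are ERβ cKO F1 and GDX F4, at 2.38 and 2.83 CPM. From the highest of 11, they rank 8 and 10 for Fosb (10.4 and 7.81 CPM) and 11 and 9 for Nr4a1 (38.2 and 42.1 CPM). ERβ cKO mice F3 and F4 have less Fosb than ERβ cKO F1 (9.14 and 7.60 CPM) with more Fos. The 3 WT (sham) mice lie at 6.59 CPM of Fos or above.

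Other genes of the same response were then counted. Among 22 other immediate early transcription factors, among them Jun, Egr3, Nr4a2, Atf3 and members of the KLF and IER families, 0 were called by edgeR in each comparison, with 1, 4 and 2 at an unadjusted p under 0.05 in ERβ cKO against WT (sham), GDX against WT (sham) and ERβ cKO against GDX mice. Of all genes tested, 5.33%, 7.98% and 17.2% had such an unadjusted p in the same order. Their median log2 fold change was -0.08, -0.13 and 0.06, beside 0, -0.01 and 0 over all genes. Klf2, a factor that is prominent in endothelium, averaged 5.72 ± 0.772 CPM in ERβ cKO mice and 3.08 ± 0.257 CPM in WT (sham) mice, so ERβ cKO over WT (sham) was 0.89 on the log2 scale (SE 0.26, edgeR adjusted p = 0.566). Each of the 4 ERβ cKO mice, at 4.83 to 6.71 CPM, was above the 3 WT (sham) mice, at 2.92 to 3.38 CPM. The CPM of these groups did not overlap for 6.34% of all genes tested. Of the 8 endothelial markers, 8 were also positive in ERβ cKO over WT (sham), with 0 called and a median log2 fold change of 1.05, and their part in the Klf2 values was not tested. In GDX against WT (sham) mice the smallest p-values belonged to Ier5 at -0.33 (adjusted p = 0.351), Nr4a3 at -0.24 (adjusted p = 0.418) and Jun at -0.26 (adjusted p = 0.503). Without WT (sham) mouse F1, Ier5 was -0.19, and without WT (sham) mouse F4 it was called (edgeR adjusted p = 0.0648).

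Of 28 effector genes that follow or accompany the transcription factors, 0 were called in the comparisons with WT (sham), where 2 and 6 had an unadjusted p under 0.05, and 2 were called lower in ERβ cKO than in GDX mice. Of all genes tested, 5.33% and 7.98% had such an unadjusted p, and 2.22% were called lower in ERβ cKO than in GDX mice. Gadd45g, a growth arrest and stress gene, had 13.5, 13.0, 12.1 and 16.0 CPM in the ERβ cKO mice, 29.3, 29.6, 22.4 and 18.8 CPM in the GDX mice, and 13.3, 20.8 and 14.2 CPM in the WT (sham) mice. The ERβ cKO and GDX mice did not overlap, as for 10% of all genes tested, and both overlapped with WT (sham) mice. ERβ cKO over GDX was -0.87 (SE 0.15, edgeR adjusted p = 0.0127), and it stayed past the threshold when each of the 8 mice was left out in turn (adjusted p up to 0.0608). GDX over WT (sham) was 0.62 (SE 0.18, adjusted p = 0.23), and without GDX mouse F4 it was called (edgeR adjusted p = 0.0339). Trib1, a pseudokinase that acts on MAP kinase signaling, averaged 28.2 ± 2.51 CPM in ERβ cKO and 38.5 ± 6.12 CPM in GDX mice (SD, n = 4 each), so ERβ cKO over GDX was -0.45 (SE 0.12, edgeR adjusted p = 0.0733). Its call held when ERβ cKO mouse F4 or F5 was left out and was lost without any other of the 8 mice, with an adjusted p of up to 0.24. The sum of astrocyte markers moved the same way between these groups, and 11 of 15 astrocyte markers were called lower in ERβ cKO than in GDX mice. The part of that difference in the Gadd45g and Trib1 values was not tested. Ccn1 and Arl4d had the smallest p-values in ERβ cKO against WT (sham) mice, at 0.72 (adjusted p = 0.83) and 0.66 (adjusted p = 0.924). Ccn1, which encodes a secreted matrix protein, had 23.6, 10.9, 10.3 and 10.7 CPM in the ERβ cKO mice, against 8.49, 8.44 and 8.39 CPM in the WT (sham) mice. ERβ cKO mouse F1 stood above the other 3, and without it the value was 0.35. Without ERβ cKO mouse F3, Arl4d was 0.42. Arl4d had 6.03, 9.02, 4.36 and 5.40 CPM in the ERβ cKO mice and 18.7, 8.25, 15.2 and 4.36 CPM in the GDX mice. Its WT (sham) values were 2.81, 4.86 and 4.14 CPM. The change was thus larger in GDX over WT (sham), at 1.54, and ERβ cKO over GDX was -0.9, neither of them called. The GDX values were spread widely and overlapped with those of both other groups.

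Among 22 upstream regulators, which include SRF and its partners, CREB and its coactivators, MEF2 factors and MAP kinases, 1 was called, in ERβ cKO against GDX mice, where 6 had an unadjusted p under 0.05. Of all genes tested there, 4.15% were called and 17.2% had such an unadjusted p, so 1 call is near the share over all genes. Mef2c, a factor of excitatory neurons, microglia and endothelium, had 147, 89.2, 71.5 and 87.8 CPM in the ERβ cKO mice, 56.1, 50.8, 61.6 and 64.2 CPM in the GDX mice, and 63.5, 86.9 and 66.4 CPM in the WT (sham) mice. The ERβ cKO mice were all above the GDX mice, with mouse F1 well above the rest, and these groups did not overlap for 10% of all genes tested. ERβ cKO over GDX was 0.77 (SE 0.19, edgeR adjusted p = 0.0718), and the call held when ERβ cKO mouse F1 or F4 was left out and was lost without any other of the 8 mice, with an adjusted p of up to 0.166. In the same comparison 8 of 8 endothelial markers were positive (median log2 fold change 1) with 3 called higher, 1 dentate granule neuron marker and 1 other neuron marker were called higher, and 11 of 15 astrocyte markers were called lower. The part of these differences in the Mef2c values was not tested. In the comparisons with WT (sham) 0 regulators were called and 1 had an unadjusted p under 0.05 in each, beside 5.33% and 7.98% of all genes. Of 10 heat shock genes, which respond to unfolded protein, 0 were called and 0 had an unadjusted p under 0.05 in each of the 3 comparisons, and the smallest p in ERβ cKO against WT (sham) mice was that of Hspa8, at -0.13 (adjusted p = 0.969).

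Of 12 glucocorticoid-responsive genes, a list that includes Dusp1, 4 were called higher in GDX than in WT (sham) mice, which were Mt2 at 0.70 (SE 0.10, edgeR adjusted p = 0.000788), Pdk4 at 0.77 (SE 0.12, adjusted p = 0.00331), Mt1 at 0.43 (SE 0.09, adjusted p = 0.0478) and Zbtb16 at 0.44 (SE 0.10, adjusted p = 0.0573). Of all genes tested, 0.325% were called higher in GDX than in WT (sham) mice. With a mouse left out, the call of Mt1 was lost without GDX mice F1, F2 or F3 or WT (sham) mouse F3, and that of Zbtb16 without these or WT (sham) mouse F1. In ERβ cKO against GDX mice, where 2.22% of all genes were called lower, 5 of the list were called lower, Mt2, Pdk4, Mt1, Tsc22d3 and Ddit4, at -0.44 to -0.95. The call of Tsc22d3 was lost without ERβ cKO mouse F3, and that of Ddit4 without ERβ cKO mouse F1 or GDX mice F1, F3 or F4. In ERβ cKO against WT (sham) mice 0 were called and 1 had an unadjusted p under 0.05, beside 5.33% of all genes. It was Tsc22d3, at 0.45 (SE 0.12, edgeR adjusted p = 0.451). Tsc22d3 had 231, 253, 289 and 243 CPM in the ERβ cKO mice and 537, 540, 586 and 303 CPM in the GDX mice. Its WT (sham) values were 201, 184 and 175 CPM. GDX over WT (sham) was 1.38, the largest change of the list there, and not called. Its groups overlapped in no comparison, as for 6.34% (ERβ cKO against WT (sham)), 8.84% (GDX against WT (sham)) and 10% (ERβ cKO against GDX) of genes. Dusp1 was in neither set of called genes, at -0.27 in GDX over WT (sham) and 0.43 in ERβ cKO over GDX mice. Both were of the opposite sign to the called genes and neither was past the test. The second value was 0.05 without ERβ cKO mouse F1. Beside these calls, 3 of 15 astrocyte markers were called higher and 5 of 8 choroid plexus markers tested were called lower in GDX than in WT (sham) mice, and 11 of 15 astrocyte markers were called lower in ERβ cKO than in GDX mice. Their part in the values of the glucocorticoid-responsive genes was not tested.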

How the data were processed

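Hippocampal RNA bound to HA-tagged ribosomes was measured in 11 mice. Libraries were prepared by the authors with the KAPA stranded chemistry and read from 1 end for 50 bases. Reads were split by library with bcl2fastq 2.17, trimmed with Trimmomatic, and placed on mm10 with QuasR, which also did the counting. What was deposited is the authors' table of unnormalized counts, 1 column per mouse. Other versions, the annotation release, the strand setting and the handling of reads with several matches were not stated in the labels or methods read here. As in the study's methods, the false discovery rate was 0.1, and a gene was dropped if more than 3 of the samples compared had a count below 1.

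IDs were matched to symbols, positions and exon lengths with GENCODE M21 (37693 of 39017 matched). Counts were fitted with edgeR 4.0.16 in R 4.3.3 (TMM, robust quasi-likelihood fit, quasi-likelihood test), 1 fit per pair of groups over the whole table, with Benjamini-Hochberg adjustment over all genes tested. All 10 members passed the filter in each comparison. CPM levels used TMM factors over the 11 libraries. Permutation tests and correlations used log2(CPM + 0.5), with exact tests between groups and 100000 resamples for correlations. Alternatives were DESeq2 1.42.0, other edgeR tests, filters, scalings, pseudocounts, a block for mouse number and leaving out each mouse. The script was tested on simulated data. Promoter windows came from RefSeq, GRCm38.p6, for 8 of 10 members.

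The members and the other gene lists were chosen with earlier results of these data known. The genes named are all members, from each other list those called and up to 4 with the smallest p in a comparison with WT (sham), and the 8 genes most like the members' mean. Called markers are counted, not named, and group sums are given for the marker lists that moved with a group and for astrocytes and neurons. Leaving out each mouse for 7 genes outside the members was added after the data were seen.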

Additional observations from a re-analysis of the deposited data

Results flagged for a closer look

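Dusp1 in ERβ cKO (sham) mouse F1 was at 34.0 CPM, far from the other mice of its group at 13.6, 16.6 and 15.2 CPM. The gap to the nearest of them was 0.85 of the range of the group, above Dixon's 95% critical value for 4 mice, and 1 of 20 groups of 4 examined gave such a value, which is about the share that chance gives. The count was 615 in this library. Of the other 11 glucocorticoid-responsive genes, 1 was highest of its group in mouse F1, which was Per1, at 84.3 CPM against 73.8, 70.5 and 74.2 CPM in the other ERβ cKO mice. Of the 22 other immediate early transcription factors 7 were highest of the group in this mouse, against 6, 2 and 7 in mice F3, F4 and F5. Of the 28 effector genes it was 5 in this mouse, against 6, 11 and 6, so these lists did not mark it out. Those highest in this mouse include Jun at 172 CPM against 134, 132 and 119 CPM, Myc at 8.25 CPM against 2.37, 4.69 and 5.11 CPM, and Ccn1. Of the oligodendrocyte precursor markers 5 of 5 were highest of the group in this mouse, and of the astrocyte markers 0 of 15, and their part was not tested. Mef2c was at 147 CPM in this mouse against 89.2, 71.5 and 87.8 CPM, and Fos was at its lowest of the 11 mice. The genes named here were chosen after their values were seen.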

How the results depend on the processing

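The count of members called stayed at 0 in the 3 comparisons under each alternative run, including each mouse left out in turn. Of 180, 180 and 190 alternative values for the members in ERβ cKO against WT (sham), GDX against WT (sham) and ERβ cKO against GDX mice, 8, 5 and 8 changed sign and 0 crossed the threshold, with smallest adjusted p of 0.402, 0.313 and 0.121 over edgeR and DESeq2 fits. Other pseudocounts changed no call of a permutation test. Precision was limited by 3 or 4 mice to a group. Egr2, Npas4 and Fos had fewer than 200 counts per library, but their variance within groups was 7.39, 14.5 and 10.5 times that of counting noise.

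Counts over the whole table moved more. In ERβ cKO against WT (sham) mice 6 genes were called, compared with 39 without a filter, 52 by DESeq2, 57 by edgeR's exact test, 64 by its likelihood ratio test, 10 without the robust option and 7 to 67 with a mouse left out. In GDX against WT (sham) mice 86 were called, compared with 289 without a filter, 53 with filterByExpr, 206 by DESeq2, 201 by the exact test, 189 by the likelihood ratio test, 23 with 11 libraries in 1 fit, 36 at an adjusted p under 0.05 and 11 to 275 with a mouse left out. The lowest counts of both came without WT (sham) mouse F3 and the highest without WT (sham) mouse F4. In ERβ cKO against GDX mice 820 were called, compared with 1628 by DESeq2, 1365 by the exact test, 1323 by the likelihood ratio test, 229 at an adjusted p under 0.05, and 104 (without GDX mouse F3) to 2450 (without ERβ cKO mouse F5) with a mouse left out. Leaving out a mouse raised the count in some runs although the sample was smaller. Other than the stricter threshold, which can only lower a count, the cause of these changes was not tested.

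No link between mice of the same number is stated in the sources used here. Same-numbered mice of 2 groups deviated from their group means with an r of -0.21 to 0.15. The best match had the same number for mice F3 and F4 in ERβ cKO against GDX, and another number in the other cases. So few mice cannot show whether they were paired. With mouse number as a replicate block, 76 genes were called in ERβ cKO against WT (sham) and 3117 in ERβ cKO against GDX mice, 0 of them members. In this fit a mouse whose number is missing from the other group, such as ERβ cKO mouse F5, adds nothing to the fold change. Without the block, leaving out that mouse gave 52 and 2450 calls, so the effect of the block itself cannot be told apart. Under the block, Arc was 0.02 in ERβ cKO over WT (sham) and Junb -0.01 in GDX over WT (sham). With library size alone, Btg2 was 0.02 in ERβ cKO over GDX.

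With a mouse left out, log2 fold changes that changed sign ranged in ERβ cKO over WT (sham) from -0.18 to 0.44 for Egr2, -0.17 to 0.07 for Arc and -0.20 to 0.34 for Dusp1. In GDX over WT (sham) they ranged from -0.26 to 0.03 for Fosb, -0.04 to 0.13 for Junb and -0.14 to 0.01 for Nr4a1. In ERβ cKO over GDX they ranged from -0.46 to 0.01 for Fos, -0.17 to 0.08 for Egr1, -0.19 to 0.46 for Npas4, -0.01 to 0.23 for Arc and -0.09 to 0.06 for Btg2.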

Other observations

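Outside the members, 8 genes followed the mean of the members' centered log2 levels most closely over the 11 mice, among 16252 genes whose counts averaged 10 or more per library. These were Ngb (neuroglobin, an oxygen-binding protein of neurons) with a Pearson r of 0.91, the ID ENSMUSG00000090028 with 0.91, Dnajb2 (a neuronal co-chaperone) with 0.89, Tent5a with 0.87, Gm27239 with 0.86, Gm16379 with 0.85, St6galnac4 (a sialyltransferase) with 0.84 and Gm20708 with 0.83. Their levels were low, from 0.168 to 1.02 CPM for Gm27239 up to 19.9 to 26.9 CPM for St6galnac4. The 8 were the highest of 16252 values, all mice share 1 set of libraries and scaling factors, and no test was made.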
